A study of Mus musculus with 11 samples.

Results

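The genes of voltage-gated ion channels and their close relatives were examined in mouse colon. Their members were taken from the deposited gene table by symbol: potassium channels (symbols from *Kcna* to *Kcnv*), calcium channels (*Cacna*, *Cacnb*, *Cacng*), sodium channels (*Scn* with a number), pacemaker channels (*Hcn*) and ryanodine receptors (*Ryr1* to *Ryr3*), with at least 10 reads in at least 5 of the 11 mice. Of the 43346 genes in the table, 146 matched these symbols and 104 met the read minimum. The other 42 fell short of it. The symbols also take in channels that are not opened by voltage, namely the inward rectifiers, the two-pore-domain leak channels, the small and intermediate calcium-activated channels and the ryanodine receptors, as well as 4 transcripts that encode no channel subunit. Each is described under its own class.

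RNA of the colon was compared between 5 germ-free and 6 humanized mice. All were male Swiss Webster mice studied at 8 to 10 weeks of age. The humanized mice had also been germ-free until 4 to 5 weeks of age, when each was gavaged with 300 μL of a human stool suspension from 1 donor, and they then lived 4 to 5 weeks with these microbes. One donor and 1 sex limit what the humanized group stands for, and the labels do not say which layers of the colon wall were sampled. Bulk RNA was measured, so fewer cells of a type and less RNA per cell cannot be told apart in any value below.

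Voltage-gated channels are pores in the cell membrane that open when the membrane potential changes. Sodium and calcium channels carry the inward current of excitable cells, potassium channels carry the outward current that ends it, and auxiliary subunits set how strongly a pore is expressed and how it gates. In the colon wall these genes serve several cell types at once: smooth muscle cells and the interstitial cells of Cajal that pace them, enteric neurons, enteroendocrine cells, and the epithelium, where potassium channels provide the driving force for chloride secretion.

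Reads counted on genes ranged from 49097005 to 64148538 per mouse in the germ-free group and from 39125290 to 54219854 in the humanized group. Of the 104 members, 100 passed the low-expression filter and were tested together with all 19863 genes that passed. *Kcnj9*, *Kcnk12*, *Kcnrg* and *Kcnmb4os2* were not tested, with at most 35 reads in any mouse. Levels are given in RPKM (reads per kilobase of the deposited gene length, scaled to the TMM-normalized library size), and changes as log2-fold changes (LFC) of humanized over germ-free mice with a standard error (SE). A gene was called at an adjusted p (FDR) below 0.01 in edgeR's exact test over all 19863 genes. Markers of several cell types moved between the groups, and their values are given beside the channel results.

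Of the 100 tested channel genes, 46 were lower in humanized mice, 5 were higher and 49 were not called. Over all tested genes, 10.1% were called lower and 9.2% higher. The median LFC of the channel genes was −0.65, against 0.01 over all tested genes, and 38 of the 46 lower genes had an LFC below −1. The RPKM of the groups did not overlap for 36 channel genes that lay lower in humanized mice and for 3 that lay higher. Of all tested genes, 9.73% and 8.67% showed such a separation in the corresponding direction. *Cacna1s*, 1 of the 3, was separated only narrowly, with at most 0.02905 RPKM in germ-free and at least 0.02910 RPKM in humanized mice. Lower genes occurred in each class except the calcium channel γ subunits, the pacemaker channels and the transcripts that encode no subunit. With edgeR's quasi-likelihood test, whose fit gives the SE values, 41 of the 51 calls held, and *Kcnt2*, *Ryr3*, *Kcnd3*, *Cacna1s*, *Kcne3*, *Kcnk6*, *Kcnj2*, *Scn3b* and *Kcnn2* were among the 10 that did not (FDR 0.0105 to 0.0286). Those called higher by the exact test were 3 two-pore-domain channels (*Kcnk1*, *Kcnk5* and *Kcnk6*), 1 pacemaker channel (*Hcn2*) and 1 calcium channel pore (*Cacna1s*).

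**Figure D1:**
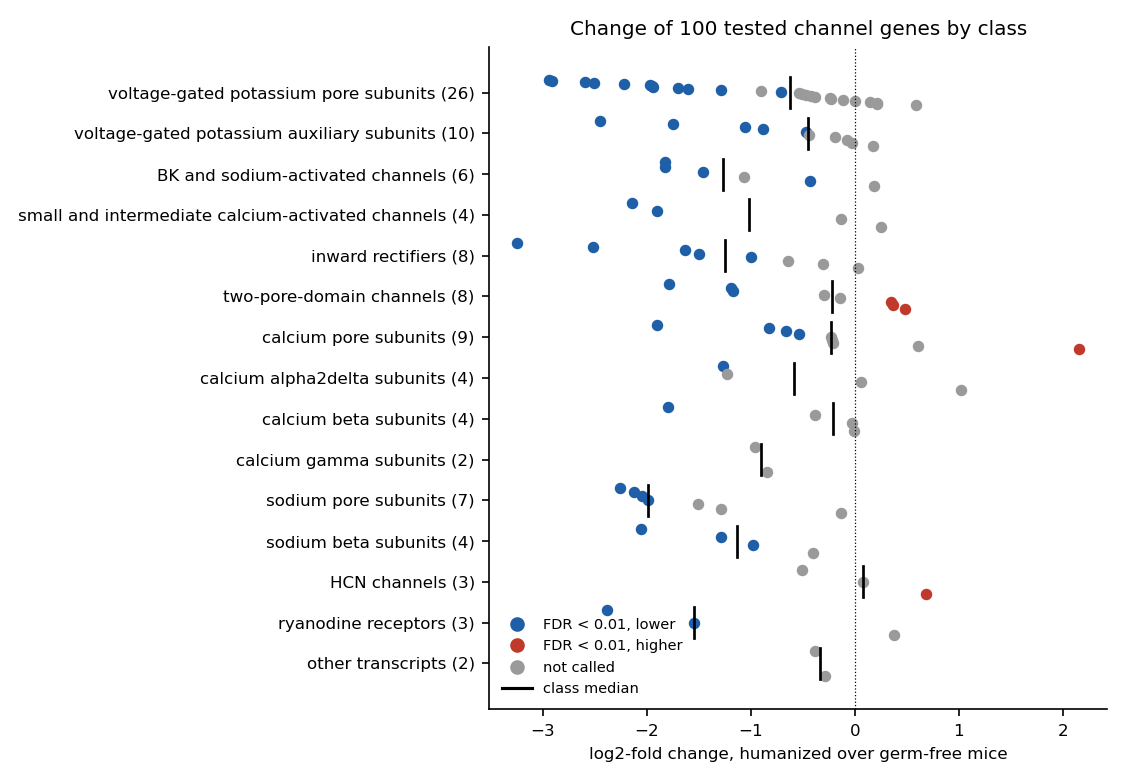
Log2-fold change of humanized over germ-free mice (x axis) for the 100 tested channel genes, grouped by class on the y axis with the number tested in brackets; points are genes, coloured by their call at FDR below 0.01, and black bars are class medians. Among sodium pore subunits all 7 points lie below 0, and the 3 two-pore-domain genes called higher lie between 0.35 and 0.48.

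The direction differed with the level of the gene. Only 9 channel genes had a mean of 5 RPKM or more over the 11 mice: *Kcne3*, *Kcnk1*, *Kcnq1*, *Kcnk6*, *Kcnn4*, *Cacnb3*, *Kcnk5*, *Kcnh3* and *Cacna1h*. Of these, 1 was lower and 3 were higher, where 4.78% and 16.1% of all genes at this level were lower and higher. Of the 15 genes between 1 and 5 RPKM, 8 were lower and 1 was higher, against 11.5% and 4.2% of all genes at this level. Of the 76 below 1 RPKM, 37 were lower and 1 was higher, against 17.8% and 2.44%. These counts are descriptions, because the read minimum could be met by the germ-free mice alone. *Kcnj3*, *Kcnj12* and *Scn9a* reached 10 reads in each germ-free and in no humanized mouse. Others, *Kcna2* and *Kcna5* among them, reached 10 reads in every germ-free mouse but not in every humanized mouse. Of the 64 genes with 10 reads in each of the 11 mice, 26 were lower in the same fit and 4 higher. Of the 40 among them below 1 RPKM, 17 were lower. The share over all genes with such reads was not computed, so these counts have no background beside them. The 9 most abundant genes made up 73.7 to 79.8% of the summed RPKM of all channel genes in the germ-free mice and 80.9 to 85.9% in the humanized mice. The other tested channel genes summed to between 67.0 and 85.1 RPKM in germ-free mice and between 39.8 and 57.3 RPKM in humanized mice, without overlap. The choice of 1 and 5 RPKM as limits was made after the levels were seen.

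**Figure D2:**
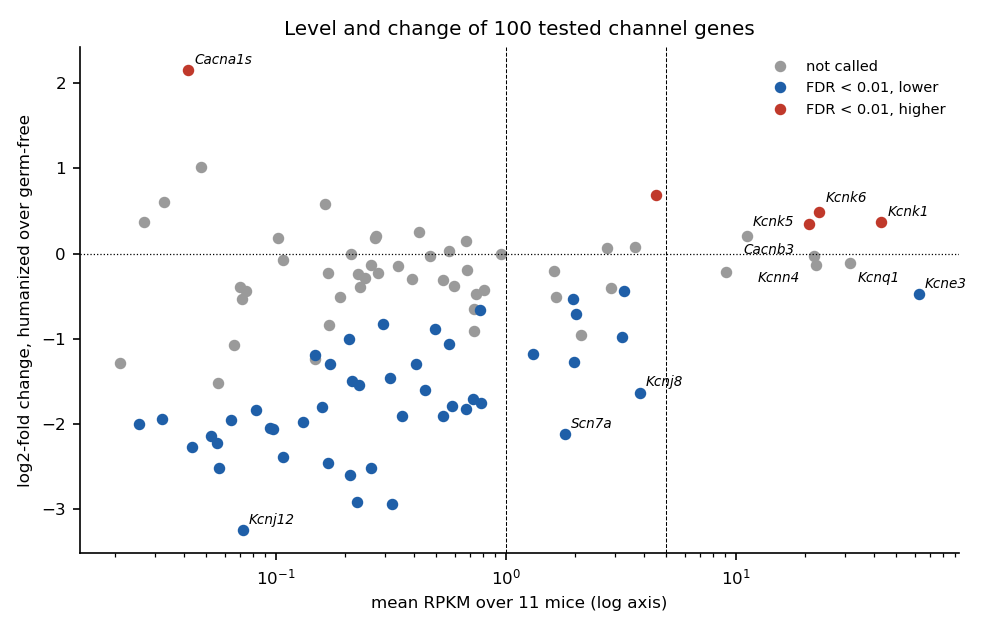
Mean RPKM over 11 mice (x axis, logarithmic) against the log2-fold change of humanized over germ-free mice (y axis) for the 100 tested channel genes, coloured by their call; dashed lines mark 1 and 5 RPKM. To the right of 5 RPKM, 3 points are called higher and 1 lower; to the left of 1 RPKM, 37 of 76 are called lower.

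The abundant potassium channels of the epithelium were described first. *Kcnq1* (chr7:143106362-143427042, mm10), a voltage-gated pore that recycles potassium at the basolateral membrane of crypt cells, stood at 35.9, 36.3, 31.3, 31.3 and 28.6 RPKM in the 5 germ-free mice and ranged from 23.5 over a median of 30.9 to 35.0 RPKM in humanized mice. The groups overlapped, and *Kcnq1* was not called (LFC −0.11, SE 0.11, FDR 0.520). *Kcne3*, the auxiliary subunit that holds KCNQ1 open in colonic crypts, was the most abundant of all channel genes. It measured 57.3, 82.4, 69.5, 77.3 and 82.6 RPKM in germ-free mice and 39.1 to 62.3 RPKM in humanized mice with a median of 55.1. It fell by 27.8% (LFC −0.47, SE 0.12, FDR 0.00238). The lowest germ-free mouse lay inside the humanized range, and the FDR reached 0.0149 when single mice were left out, with the call lost without germ-free mouse 2, 4 or 5. The ratio of *Kcne3* to *Kcnq1*, in RPKM, was 159.5 to 288% in germ-free and 112 to 221% in humanized mice.

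The calcium-activated epithelial channel *Kcnn4* (intermediate conductance) was not called either. Its levels were 20.3, 26.2, 23.4, 21.9 and 25.2 RPKM in germ-free mice, and 18.2, 20.6 and 25 RPKM as the lowest, median and highest humanized values (LFC −0.13, FDR 0.386). *Kcne2*, another auxiliary subunit of KCNQ1, was present at only 0.162 to 0.348 RPKM in germ-free mice and 0.158 to 0.493 RPKM in humanized mice and was not called (LFC 0.18, FDR 0.769). The sign of its LFC turned under other scalings of the libraries.

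In the *Kcnk* family of leak channels, 3 genes rose. Leak channels stay open at rest and hold the resting potential. *Kcnk1* (TWIK-1) was the second most abundant channel gene, with 35.7, 40.2, 36.2, 34.6 and 37.8 RPKM in germ-free mice and 43.6, 47.8 and 53.9 RPKM as the lowest, median and highest humanized values. Every humanized mouse lay above every germ-free mouse, and the level was 1.29-fold higher (LFC 0.37, SE 0.06, FDR 2.36e-05; exact permutation test of the RPKM means, two-sided p = 0.00216, the smallest that 5 against 6 mice allow). *Kcnk6* (TWIK-2) was 1.4-fold higher (LFC 0.48, SE 0.13, FDR 0.00339), from 16.7, 23.2, 17.1, 16.1 and 21.5 RPKM in germ-free mice to 20.9 to 32.3 RPKM in humanized mice with a median of 26.2. *Kcnk5* (TASK-2), which is sensitive to extracellular pH, was 1.28-fold higher (LFC 0.35, SE 0.08, FDR 0.00166), from 15.9, 16.3, 18.7, 20.2 and 19.0 RPKM to 19.5 to 25.7 RPKM with a median of 22.9. The groups of *Kcnk5* and *Kcnk6* overlapped. The call of *Kcnk5* was lost without germ-free mouse 1 or 2 (FDR up to 0.0122), and that of *Kcnk6* without germ-free mouse 1, 3 or 4 or humanized mouse 1 or 2 (FDR up to 0.0218).

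These 3 calls depended on how the libraries were scaled. With total counts in place of TMM, the LFC were 0.18, 0.16 and 0.30 for *Kcnk1*, *Kcnk5* and *Kcnk6*, and with scaling to 11 epithelial marker genes 0.14, 0.11 and 0.27, and none was then called (FDR 0.0458 to 0.394). The median LFC of all genes itself shifted to −0.176 and −0.227 under these scalings, from 0.01 under TMM. A change of scaling moves all genes by nearly the same amount. That the 3 genes stayed above these medians therefore adds nothing to their calls. Of the 11 epithelial markers themselves, 2 were called higher, and their LFC ranged from 0.05 to 0.48 with a median of 0.21. The 3 two-pore-domain genes that fell were far less abundant: *Kcnk2* (TREK-1, opened by stretch), *Kcnk3* (TASK-1, closed by acid) and *Kcnk13* lost 71.1, 55.6 and 56.3% of their level. *Kcnk3*, the most abundant of them, went from 1.41 to 2.50 RPKM in germ-free to 0.696 to 1.15 RPKM in humanized mice. Within this family of 8 tested genes, 3 rose, 3 fell and 2 (*Kcnk4* and *Kcnk7*) were not called.

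**Figure D3:**
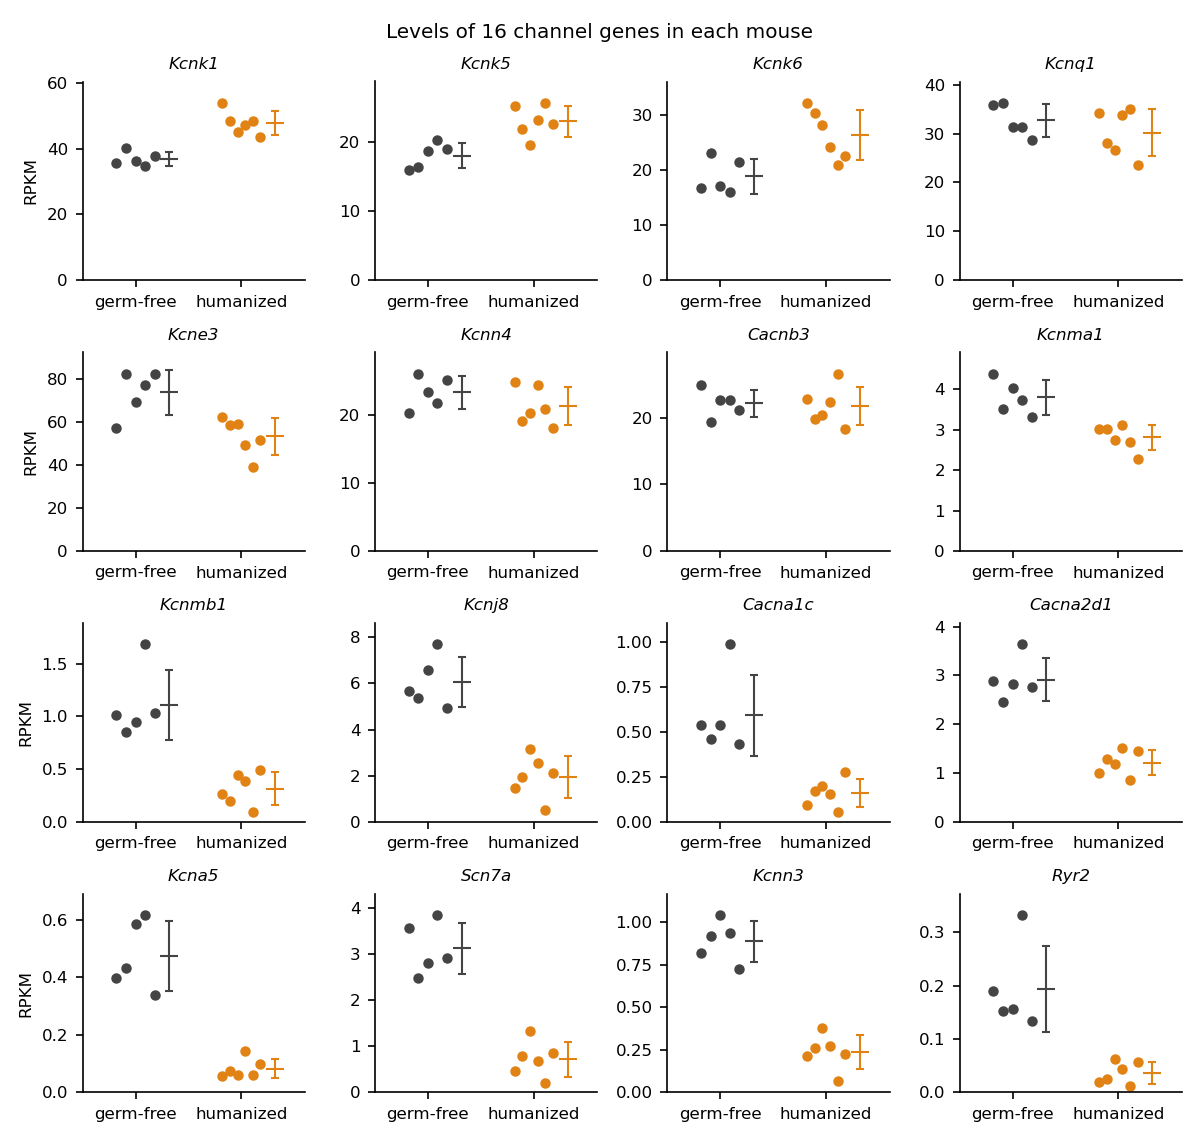
RPKM (y axes, from 0) of 16 channel genes in each of the 5 germ-free and 6 humanized mice, one point per mouse, with the group mean and SD beside the points. The upper rows hold abundant genes whose groups lie close together or overlap, and *Kcnmb1*, *Kcnj8*, *Cacna1c*, *Cacna2d1*, *Kcna5*, *Scn7a*, *Kcnn3* and *Ryr2* show no humanized mouse inside the germ-free range.

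BK channels are opened by voltage and by internal calcium together, and damp contraction in smooth muscle. Their pore and their muscle subunit did not fall by the same amount. The pore gene *Kcnma1* stood at 4.40, 3.51, 4.05, 3.74 and 3.33 RPKM in germ-free mice and at 2.29, 2.89 and 3.11 RPKM as the lowest, median and highest humanized values. All humanized mice lay below all germ-free mice, and the gene fell by 26.0% (LFC −0.43, SE 0.10, FDR 0.00114). Without germ-free mouse 1 its FDR was 0.0101. *Kcnmb1* (chr11:33963013-33973641, mm10), the β1 subunit that raises the calcium sensitivity of the channel in smooth muscle, stood at 1.02, 0.853, 0.951, 1.69 and 1.03 RPKM in germ-free mice and between 0.0904 and 0.490 RPKM in humanized mice with a median of 0.323. It fell by 71.7% (LFC −1.82, SE 0.35, FDR 1.52e-05). The ratio of *Kcnmb1* to *Kcnma1* RPKM was 23.2 to 45.0% in germ-free and 3.35 to 21.4% in humanized mice, without overlap.

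The stretches just upstream of *Kcnmb1*, a member that fell, and of *Kcnk1*, the most abundant member that rose, are shown because these genes carry both directions of change. They are the 250 bases before the RefSeq transcription start on GRCm38.p6, at chr11:33962763-33963012 and chr8:125994852-125995101, both on the plus strand, with every CG dinucleotide in capitals. The letters searched were CG, which read the same on both strands.
Kcnmb1: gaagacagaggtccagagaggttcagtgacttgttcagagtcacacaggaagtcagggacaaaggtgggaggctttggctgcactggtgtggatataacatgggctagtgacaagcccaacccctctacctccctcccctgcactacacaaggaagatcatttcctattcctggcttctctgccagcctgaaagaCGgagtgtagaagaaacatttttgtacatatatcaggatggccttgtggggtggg
Kcnk1: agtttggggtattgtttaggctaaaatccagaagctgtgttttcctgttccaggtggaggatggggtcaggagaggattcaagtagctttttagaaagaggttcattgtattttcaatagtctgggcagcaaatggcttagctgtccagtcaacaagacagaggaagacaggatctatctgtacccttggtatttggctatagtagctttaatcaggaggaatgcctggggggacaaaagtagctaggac
The *Kcnmb1* stretch holds 1 CG and the *Kcnk1* stretch 0, where the median of 32851 RefSeq windows of the same length is 6. Their GC content is 50.8 and 44.4%, against a median of 52.4%. Of all windows, 7.87% hold fewer CG than that of *Kcnmb1*. These are descriptions of the letters only.

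Of the other genes in the BK class, *Kcnt2* (sodium-activated) and *Kcnu1* fell by 71.9 and 63.7%. *Kcnu1* encodes a channel known from sperm and measured 0.298 to 0.698 RPKM in germ-free mice. *Kcnt1* missed the threshold (LFC −1.07, FDR 0.0184), and *Kcnmb4* was not called (FDR 0.852). Among small-conductance calcium-activated channels, *Kcnn3* went from 0.818, 0.918, 1.04, 0.938 and 0.724 RPKM in germ-free mice to between 0.0655 and 0.377 RPKM in humanized mice with a median of 0.245, a fall of 73.3% (LFC −1.91, SE 0.31, FDR 1.30e-07). *Kcnn2* also fell (LFC −2.14, SE 0.65, FDR 0.00742), but with 0 to 74 reads per mouse its call was lost in 7 of 11 fits that left out 1 mouse (germ-free mouse 2, 3, 4 or 5, or humanized mouse 1, 2 or 4; FDR up to 0.0408).

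Voltage-gated potassium pores were the largest class, with 26 tested genes, of which 12 were lower and 14 not called. The class median LFC was −0.62. The largest falls among them belonged to *Kcna* (Kv1) genes, the delayed rectifiers that set axonal and muscle excitability. *Kcna2* stood at 0.509, 0.464, 0.564, 0.853 and 0.662 RPKM in germ-free mice and between 0.0122 and 0.164 RPKM in humanized mice with a median of 0.0753 (LFC −2.94, SE 0.44, FDR 2.03e-09). *Kcna6* fell from 0.437, 0.402, 0.420, 0.541 and 0.334 RPKM to 0.0183 to 0.110 RPKM with a median of 0.0576 (LFC −2.91, SE 0.36, FDR 1.43e-13). The groups did not overlap in either gene. Humanized mice had 2 to 22 reads of *Kcna2* and 4 to 31 of *Kcna6*.

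*Kcna1* and *Kcna5* followed, with falls of 83.5 and 82.4%, on 7 to 49 and 6 to 16 reads in humanized mice. *Kcna5* (Kv1.5), a channel of smooth muscle, stood at 0.397, 0.431, 0.585, 0.616 and 0.338 RPKM in germ-free mice and between 0.0577 and 0.145 RPKM with a median of 0.0678 in humanized mice (LFC −2.51, SE 0.28, FDR 3.52e-14), the smallest FDR of any channel gene. *Kcna1*, *Kcna5* and *Kcna6* are neighbours on chromosome 6, and *Kcna6* shares 39.6% of its exon bases with the antisense gene *Gm26673*, whose reads cannot be told from its own because the libraries did not mark strand. *Kcna3*, known from lymphocytes, was not called, with 0.163 to 0.348 RPKM in germ-free and 0.111 to 0.557 RPKM in humanized mice.

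Of the *Kcnq* (Kv7) genes, which carry the M-current that restrains neurons and muscle, *Kcnq3* and *Kcnq5* fell by 78.5 and 74.1%, whereas *Kcnq1* was not called. *Kcnq5* went from 0.132, 0.0596, 0.138, 0.106 and 0.100 RPKM to between 0.0110 and 0.0441 RPKM (LFC −1.95, SE 0.34, FDR 5.16e-07). In both *Kcnq3* and *Kcnq5* no humanized mouse reached the lowest germ-free mouse.

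Other lower pores of this class were *Kcnd3*, *Kcng2* and *Kcnh6*, the last of them not called without germ-free mouse 1 or 2 (FDR up to 0.0144). *Kcnh2* (ERG1), a channel of gut pacemaking and muscle, lay at 1.43 to 2.73 RPKM in germ-free and 1.22 to 1.6 RPKM in humanized mice and missed the threshold (LFC −0.51, SE 0.15, FDR 0.0178). *Kcnh3*, the only pore of this class besides *Kcnq1* above 5 RPKM, was not called, with 6.6 to 12.4 RPKM in germ-free and 9.43 to 15.8 RPKM in humanized mice.

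Auxiliary subunits of voltage-gated potassium channels were lower in 5 of 10 tested genes. Besides *Kcne3*, these were *Kcne4*, which inhibits KCNQ1, and 3 of the calcium-binding *Kcnip* subunits of Kv4 channels (*Kcnip1*, *Kcnip3* and *Kcnip4*). *Kcne4* fell from 1.07 to 1.69 RPKM in germ-free to 0.222 to 0.5 RPKM in humanized mice (LFC −1.75, SE 0.21, FDR 8.23e-12). The fall was 70.2%, against 27.8% in the far more abundant *Kcne3*. The oxidoreductase-like β subunits *Kcnab1*, *Kcnab2* and *Kcnab3* were not called.

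Among inward rectifiers, which pass potassium best near the resting potential, 5 of 8 tested genes fell. *Kcnj8*, the Kir6.1 pore of ATP-sensitive channels in smooth muscle and pericytes, was the most abundant, at 5.66, 5.39, 6.58, 7.70 and 4.96 RPKM in germ-free mice. In humanized mice it ranged from 0.520 over a median of 2.04 to 3.15 RPKM, below every germ-free mouse, a fall of 67.7% (LFC −1.63, SE 0.33, FDR 2.75e-05). Its partner *Abcc9*, the sulfonylurea receptor SUR2, fell as well (LFC −1.98, SE 0.32, FDR 5.53e-08), from 3.98 ± 0.576 RPKM (SD, n = 5) to 1.01 ± 0.435 (SD, n = 6). The other pair of this channel type, *Kcnj11* and *Abcc8*, known from endocrine cells, was not called (FDR 0.974 and 0.725).

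*Kcnj12* (Kir2.2) showed the lowest LFC of all channel genes (LFC −3.25, SE 0.59, FDR 3.14e-10). It rested on few reads, 28 at most and 0 in 3 of the 6 humanized mice, with 0.0923, 0.167, 0.155, 0.163 and 0.130 RPKM in germ-free mice and 0 to 0.0396 RPKM in humanized mice. *Kcnj3* (GIRK1, opened by G proteins) fell by 82.5% on at most 52 reads, and 31.1% of its exon bases are shared with *Gm26794*. *Kcnj5*, which pairs with it, fell by 64.5%. *Kcnj2* (Kir2.1) fell by 50.06% (FDR 0.00823) but lost its call in 10 of 11 fits that left out 1 mouse, the exception being humanized mouse 2 (FDR up to 0.0445). The epithelial *Kcnj13* (Kir7.1) was not called (LFC −0.64, FDR 0.0833), and 49.1% of its exon bases lie in *Gigyf2*.

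Of the 9 tested calcium channel pores, 4 were lower, 1 was higher and 4 were not called. *Cacna1c*, the L-type Cav1.2 that triggers contraction of smooth muscle, stood at 0.538, 0.459, 0.541, 0.988 and 0.433 RPKM in germ-free mice and at 0.0556, 0.164 and 0.276 RPKM as the lowest, median and highest humanized values. The groups did not overlap, and it fell by 73.2% (LFC −1.90, SE 0.35, FDR 3.39e-06). *Cacna1d* (Cav1.3), the more abundant L-type gene here, fell by 30.9%, from 2.54, 2.167, 2.18, 2.56 and 2.36 RPKM to between 1.22 and 1.90 RPKM with a median of 1.68 (LFC −0.53, SE 0.10, FDR 0.000165). The ratio of *Cacna1c* to *Cacna1d* was 18.4 to 38.6% in germ-free and 2.92 to 16.6% in humanized mice.

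Of the neuronal-type pores, *Cacna1e* and *Cacna1a* fell by 43.5 and 36.6%, the latter not called without germ-free mouse 1 or 3 (FDR up to 0.0116). The more abundant *Cacna1b*, of the same type, was not called, with means of 1.75 RPKM in germ-free and 1.52 RPKM in humanized mice (LFC −0.21, SE 0.11, FDR 0.269). *Cacna1h*, a low-voltage T-type pore and the most abundant calcium pore, was not called, with 11.1, 9.24, 10.5, 8.35 and 10.0 RPKM in germ-free mice and 6.32, 8.34 and 10.9 RPKM as the lowest, median and highest humanized values (LFC −0.22, FDR 0.286). *Cacna1s*, the L-type pore of skeletal muscle, had the highest LFC of all channel genes (LFC 2.16, SE 0.56, FDR 0.00029), but stood at 0 to 0.0291 RPKM in germ-free and 0.0291 to 0.107 RPKM in humanized mice, from 0 to 35 reads. Beside it, the skeletal muscle markers summed to 3.76 to 12.4 RPKM in germ-free and 1.11 to 4.71 RPKM in humanized mice, with 2 of 3 tested lower, and 20% of the exon bases of *Cacna1s* are shared with *Gm37759*.

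Auxiliary calcium channel subunits were called in 2 of 10 cases. *Cacna2d1*, the α2δ subunit that brings pores to the membrane, fell from 2.89, 2.45, 2.82, 3.64 and 2.75 RPKM to between 0.846 and 1.51 RPKM with a median of 1.23 (LFC −1.27, SE 0.15, FDR 4.20e-12). *Cacnb2* fell from 0.221, 0.196, 0.234, 0.465 and 0.189 RPKM to between 0.0509 and 0.130 RPKM (LFC −1.79, SE 0.29, FDR 6.20e-07). *Cacnb3*, by RPKM the most abundant of the auxiliary calcium channel genes, was not called and ranged from 19.4 to 24.9 RPKM in germ-free and from 18.4 to 26.6 RPKM in humanized mice (LFC −0.03, SE 0.09, FDR 0.882). *Cacnb2* amounted to 0.885 to 2.05% of *Cacnb3* in germ-free and 0.221 to 0.707% in humanized mice. *Cacna2d2*, whose mean of 2.69 RPKM in germ-free mice lay below the 2.91 RPKM of *Cacna2d1*, and *Cacng7* were not called (FDR 0.770 and 0.0360).

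All 7 tested sodium channel pores had a negative LFC, and 4 were called lower. *Scn7a* (Nax), a sodium sensor of glia and neurons, was the most abundant, at 3.56, 2.48, 2.81, 3.84 and 2.90 RPKM in germ-free mice and at 0.195, 0.732 and 1.32 RPKM as the lowest, median and highest humanized values (LFC −2.12, SE 0.34, FDR 9.48e-08). *Scn9a* (Nav1.7) and *Scn11a* (Nav1.9), both of peripheral neurons, fell by 74.9 and 75.8%.

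*Scn9a* and *Scn11a* were counted with at most 71 reads per mouse. *Scn2a1* and *Scn8a*, pores of central and peripheral neurons, missed the threshold (LFC −1.51 and −1.28, FDR 0.0167 and 0.0138). *Scn3a*, known from enteroendocrine cells as well as neurons, was not called, at 0.219 to 0.289 RPKM in germ-free and 0.186 to 0.279 RPKM in humanized mice (LFC −0.14, FDR 0.615). Of the β subunits, which anchor and modulate the pores, 3 of 4 tested were lower, among them *Scn4b* and *Scn3b*, the latter with a call lost in 7 of 11 fits that left out 1 mouse (germ-free mouse 1, 3, 4 or 5, or humanized mouse 1, 2 or 4; FDR up to 0.0362).

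*Hcn2*, a pacemaker channel opened by hyperpolarization, also rose. It stood at 3.50, 3.37, 3.34, 3.19 and 3.55 RPKM in germ-free mice and at 3.83, 5.37 and 7.18 RPKM as the lowest, median and highest humanized values, without overlap and 1.61-fold higher (LFC 0.69, SE 0.15, FDR 0.0004). With total counts in place of TMM it kept its call (LFC 0.49, FDR 0.00998), and with scaling to epithelial markers it lost it (LFC 0.44, FDR 0.0447). *Hcn3* and *Hcn4* were not called. Among the enteroendocrine markers, listed because such cells are electrically excitable, 3 of 7 were higher and 1 was lower. Their summed RPKM ranged from 157.2 to 211 in germ-free and from 194.7 to 330.4 in humanized mice, and their part in the *Hcn2* result was not tested.

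Ryanodine receptors release calcium from internal stores. *Ryr2* fell from 0.190, 0.153, 0.156, 0.333 and 0.134 RPKM to between 0.0112 and 0.0626 RPKM with a median of 0.0349 (LFC −2.39, SE 0.40, FDR 2.93e-07), and *Ryr3* from 0.338, 0.285, 0.301, 0.581 and 0.289 RPKM to between 0.0369 and 0.227 RPKM (LFC −1.54, SE 0.38, FDR 0.000823). In both genes germ-free mouse 4 was well above the other germ-free mice, and the groups did not overlap. *Ryr1*, the skeletal muscle form, was not called. The noncoding *Kcnq1ot1* and *Kcnab3os* were not called either.

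**Figure D4:**
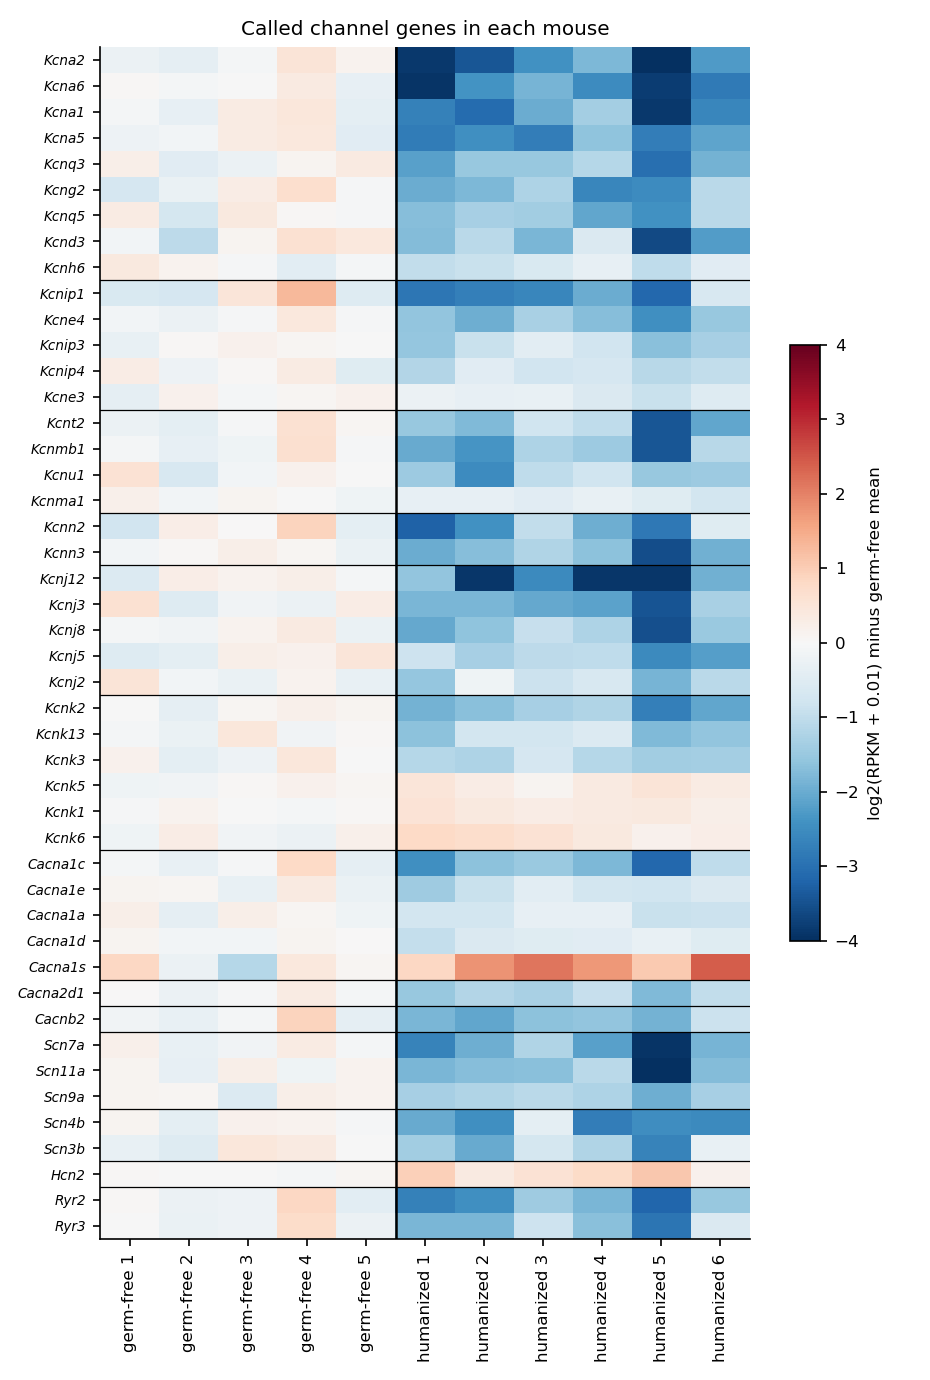
Level of 46 of the 51 called channel genes (y axis, grouped by class between lines) in each mouse (x axis), as log2(RPKM + 0.01) minus the germ-free mean, coloured from −4 (blue) to 4 (red) with values beyond these limits drawn at the limit. Lower genes are mostly blue in the humanized columns, and humanized mouse 5 has the lowest humanized level in 33 of all 46 lower genes.

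The mice did not all contribute alike. Among the 46 lower genes, humanized mouse 5 was the lowest humanized mouse in 33 and germ-free mouse 4 the highest germ-free mouse in 26. The same mice stood apart in smooth muscle markers. All 10 smooth muscle markers were lower (median LFC −1.98), and their summed RPKM was 349.6, 458.5, 576.9, 1040 and 434.4 in the germ-free mice and 83.8, 110.3, 136.9, 145.7, 43.8 and 368.8 in humanized mice 1 to 6. Germ-free mouse 4 was the highest, humanized mouse 5 the lowest, and humanized mouse 6 lay within the germ-free range. Leaving out humanized mice 5 and 6 together gave 43 lower and 6 higher channel genes.

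Other cell types moved too. Of the enteric neuron markers, 9 of 11 were lower, with summed RPKM of 18.2 to 35.8 in germ-free and 1.99 to 13.1 in humanized mice. Of the glia markers 4 of 5 were lower (2.78 to 4.86 against 0.590 to 1.39 RPKM), of the fibroblast markers 4 of 5 (126.3 to 223.3 against 15.4 to 110.6), and of the interstitial cell of Cajal markers 1 of 5 (40.7 to 47.5 against 27.0 to 40.9). The 5 endothelial markers had LFC of −1.28 to −0.62 that missed the threshold, while their sums did not overlap (14.8 to 17.9 against 1.86 to 13.8). Of the blood cell markers 2 of 5 were higher (66.8 to 89.4 against 30.2 to 185.5). The part of these marker changes in the channel results was not tested.

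The level of each channel gene was also set against the smooth muscle markers of the same mouse. Of the 46 lower genes, 41 had reads in each mouse, and the mean log2 ratio shifted by at most 0.5 in 21 of them, was higher by more in 17 and lower by more in 3. The markers themselves fell, with geometric means of 21.4 to 63.1 RPKM in germ-free and 2.275 to 22.7 RPKM in humanized mice. A gene of unchanged RPKM therefore rises in this ratio, as the uncalled *Kcnq1* did by 2.06 in the mean. A small shift means only a fall close to that of the markers, in whatever cells the gene is expressed. The shifts were not tested, and the genes given next were chosen after their values were seen. The log2 ratio of *Cacna1c* to the geometric mean RPKM of the 10 markers was −6.02 to −5.31 in germ-free and −6.36 to −5.31 in humanized mice. That of *Kcnmb1* was −5.23 to −4.39 and −5.53 to −4.12, that of *Kcnn3* −6.07 to −4.71 and −6.65 to −4.37, and that of *Scn7a* −4.04 to −2.59 and −4.74 to −2.56. In these 4 genes the germ-free range lay within the humanized range. The ratio of *Kcna2* lay lower, from −6.21 to −5.31 in germ-free to −7.62 to −5.80 in humanized mice, with ranges that overlapped. That of *Kcnma1* lay higher, from −4.08 to −2.28 to −3.31 to 0.25, as did that of *Cacna1d*, by 1.64 in the mean, and that of *Kcnk1*, from −0.86 to 0.74 to 0.94 to 4.41, the latter without overlap.

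**Figure D5:**
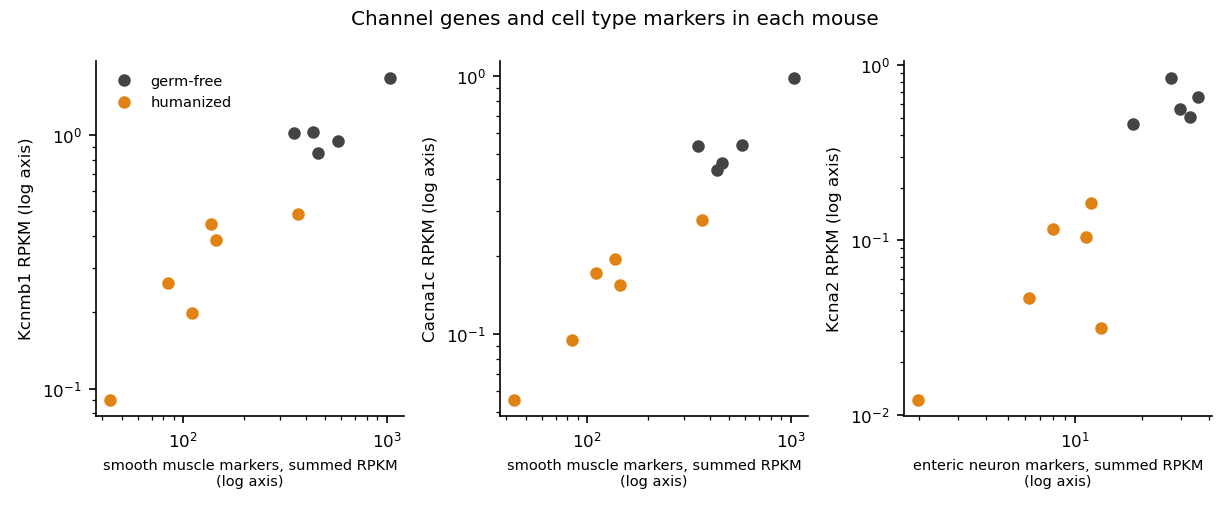
RPKM of *Kcnmb1* and *Cacna1c* against the summed RPKM of 10 smooth muscle markers, and of *Kcna2* against that of 11 enteric neuron markers, one point per mouse, all axes logarithmic. Humanized mouse 5 is lowest on both axes in all 3 panels, and germ-free mouse 4 is highest on both axes in the first 2 panels.

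Genes that work with these channels without matching their symbols were read from a list of 49, of which 44 were tested. Of these, 13 were lower, 2 were higher and 29 were not called, with a median LFC of −0.16. The BK γ subunit *Lrrc26*, which lets the channel open at rest in secretory cells, fell from 46.7 to 52.6 RPKM in germ-free mice to 24.6 to 45 RPKM in humanized mice, without overlap (LFC −0.56, SE 0.14, FDR 0.00102). The Kv4 partner *Dpp6* (LFC −2.30) and the store proteins *Jph2* and *Casq2* of muscle (LFC −1.79 and −1.77) fell further. The calmodulin gene *Calm2* and the kinase gene *Camk2d* rose, with LFC of 0.30 and 0.36 and without overlap. Of the anion channel genes in the list, *Best2* fell (LFC −0.64, SE 0.17, FDR 0.00674) with groups that overlapped, and *Ano6* fell (LFC −0.69, SE 0.11, FDR 1.94e-06) with groups that did not. The calcium-activated *Ano1* (LFC −0.30, FDR 0.0175), the epithelial *Cftr* and the ion transporters *Slc12a2* and *Atp1b1* were not called, and neither were the calcium pumps *Atp2a2* and *Atp2a3*.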

How the data were processed

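Colon poly(A) RNA of 11 mice was prepared with TruSeq v2, which does not mark strand, and sequenced as 101 bp read pairs. According to the submitters' processing notes, the authors used bcl2fastq 2.17.1.14, TopHat2 2.1.0 with Bowtie2 2.2.3 against mm10, and featureCounts of Subread 1.4.6-p5. They deposited raw read counts of 43346 genes, with positions and a gene length whose making is not given in the sources used here. Mice were grouped by their labels, which name no batch.

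From these counts the study's own design was followed with edgeR 4.0.16 (R 4.3.3), with DESeq2 1.42.0 as an alternative. The steps were filterByExpr (minimum count 10, minimum total 15, large sample 10, proportion 0.7), TMM, estimateDisp, the exact test and Benjamini-Hochberg correction over 19863 genes, FDR below 0.01. SE values come from the quasi-likelihood fit. RPKM used the deposited length. Single values were compared with a two-sided exact permutation test. The test was checked on simulated data. Exon overlaps come from GENCODE M21 (GRCm38), which need not be the authors' annotation, and 41 of 104 members shared exon bases with another gene, 6 of them over 25%. Upstream sequence is from RefSeq. A comparison of a motif between promoters of called and other members was void, since 32 of 46 lower genes had a RefSeq window, under 80%.

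Members, marker lists and the partner list were chosen with earlier results of these data known. Named were a roster of 30 channel genes (28 of them members), the 5 highest and 5 lowest LFC among called members, and the most abundant member of each class, 39 in all. Other names stand where a count is spelled out or were chosen after their values were seen. Mice of the same group differed by more than counting noise (mean chi-square per gene at least 21.3 in germ-free and 37.8 in humanized pairs). Same-numbered mice are different animals, and nothing in the labels pairs them. Alternatives were other tests, scalings, filters and thresholds, leaving out mice, and a replicate block. The p-values measure the spread between these mice. Some members and partner genes are counted but not reported here by name.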

Additional observations from a re-analysis of the deposited data

Results flagged for a closer look

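Of 78 groups of named channel genes checked, 10 held a mouse far from the others of its group. The limit used flags about 1 in 20 groups by chance if they are independent and normally distributed. The genes share the same mice, so the 10 cannot be set against that rate. In germ-free mice, mouse 4 was far above the other mice in 5 genes: *Kcnmb1* (1.69 RPKM, next 1.03), *Cacna1c* (0.988, next 0.541), *Cacnb2* (0.465, next 0.234), *Ryr2* (0.333, next 0.190) and *Ryr3* (0.581, next 0.338). Without this mouse all 5 stayed called lower. *Kcnj13* was high in germ-free mouse 1 (1.37 RPKM, next 0.883). *Scn3a* was low in germ-free mouse 2 (0.219 RPKM, next 0.278) and *Scn9a* in germ-free mouse 3 (0.0254 RPKM, next 0.0449). Among humanized mice, mouse 6 was high in *Cacnb2* (0.130 RPKM, next 0.0758) and mouse 5 low in *Scn9a* (0.0033 RPKM, next 0.0107).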

How the results depend on the processing

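None of the 51 called channel genes changed direction under any alternative run. Against 46 lower and 5 higher genes, DESeq2 and RLE normalization gave 46 and 5 each, no filter 43 and 5, and leaving out 1 mouse 41 to 49 lower and 3 to 5 higher. The quasi-likelihood test gave 38 and 3, keeping 41 of the 51 calls, and the 10 lost calls had an FDR of 0.0105 to 0.0286. Among them were *Kcnt2* (0.0105), *Ryr3* (0.0106), *Kcnd3* (0.0132), *Cacna1s* (0.0133), *Kcne3* (0.0144), *Kcnk6* (0.0171), *Kcnj2* (0.0245), *Scn3b* (0.0268) and *Kcnn2* (0.0286). Requiring 10 counts in every mouse left 64 members tested, with 27 lower and 4 higher. Over all genes of that fit, 1716 were lower and 1540 higher. An absolute LFC above 1 left 38 and 1. Total-count normalization gave 51 lower and 2 higher, and scaling to epithelial markers 48 and 1. Over all genes these scalings gave 3609 lower and 773 higher, and 3099 and 548, against 1999 and 1827 under TMM.

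The deviations of mice with the same number had correlations of −0.133 to 0.091, and the labels state no pairing. The correlations have no reference beside them, so they cannot show that such mice shared nothing else. With the replicate block in a quasi-likelihood fit of 10 mice, 18 genes were lower and 2 higher, and without the block in the same fit 29 and 2.

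The sign of the LFC turned in at least 1 alternative in 16 of the 49 uncalled genes, 4 of which are given here. *Cacna2d2* had an LFC of −0.12 with total counts, −0.18 with epithelial scaling and −0.0127 to 0.11 with 1 mouse left out. *Cacnb3* ranged from −0.0969 to 0.0184 with 1 mouse left out and was 0.0072 with the block and 0.0098 without it. *Kcne2* was −0.0040 with total counts, −0.0326 with epithelial scaling and −0.0349 to 0.324 with 1 mouse left out. *Kcnh3* was −0.0318 with epithelial scaling. The cause of these shifts was not tested.

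Depth limits the genes with few reads. Among called genes, *Kcnj12*, *Cacna1s*, *Scn9a* and *Kcnj3* never exceeded 28, 35, 42 and 52 reads in a mouse.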
